A study of Danio rerio with 2 samples.

Results

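The genes described here encode the light-sensing cascade of rod photoreceptors, read in 2 zebrafish RNA-seq libraries, 1 from WT fish and 1 from salvianolate-treated fish. They were chosen by name from 9 symbols: gnat1, gngt1, gnb1b, saga, sagb, pde6a, pde6b, pde6ga and cnga1. Of these names 7 had a row, and because the names table gives PDE6B and CNGA1 to 2 Ensembl IDs each, they covered 9 of the 26597 rows of the deposited table. No row carried the name gngt1 or pde6a, and whether a row named PDE6B is in fact that of its sister gene pde6a cannot be told from the names table. The symbol pde6ga was placed through PDE6G, a name without a copy letter, so the row may stand for that copy or its sister copy.

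Rods are the photoreceptors of dim light. The light-activated visual pigment switches on the G protein transducin, transducin lifts the inhibitory subunits off the phosphodiesterase, the fall of cyclic GMP closes cation channels of the outer segment, and arrestin ends the signal by binding the activated pigment. Cones use sister genes for the same steps, and in zebrafish larvae cones are the more numerous photoreceptors at first.

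Both libraries are labelled total RNA of cardiac tissue. The treatment stands in the genotype field of the labels as salvianolate-treated, and 1 title speaks of embryos. Salvianolate is a drug extract made from the root of the plant Salvia miltiorrhiza, and its main constituents are salvianolic acids. The labels give neither strain nor age, and no dose, treatment time or animal number, and do not say whether a library pools animals. Each group is 1 library, so no difference below has a replicate check, no test between conditions could be made and no p-value is given. The WT library held 19531808 and the treated library 19295536 estimated counts, and 3 counts amount to 0.157 and 0.152 CPM (counts per 1000000, after scaling of the libraries). Every interval covers 95% counting error only. The series' text gives 109 genes as up-regulated and 565 as down-regulated in the treated group. By contrast, of 19829 genes here 532 stood higher and 143 lower by 2-fold or more with a counting interval that excludes a ratio of 1. The rule behind the text's numbers was not applied here, so the sizes of the counts cannot be compared. Whether the text's direction or the library labels are exchanged cannot be said, and the labels set each direction given below.

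The labelled tissue was compared with its markers. Of 10 heart muscle names, 8 had a row, and no row carried the name vmhc or vmhcl. The names table gives MYH6 to several Ensembl IDs. Whether any of them is the row of vmhc or vmhcl cannot be told from it. MYL7 encodes a myosin light chain of the heart and had 19.2 CPM in WT against 14.7 CPM in treated, while nppa, a natriuretic peptide gene with the lowest ratio of the list, had 16.8 and 9.03 CPM. The highest ratio, 0.38, was that of MYH6 ENSDARG00000079564 at 30.0 and 39.1 CPM. The 16 lens rows summed to 4896 and 6251 CPM, against 724 and 669 CPM for the 12 heart muscle rows, most of the latter from the actin gene actc1a at 624 and 575 CPM. In both groups the summed lens rows thus stood above the summed heart muscle rows. Whether the RNA of the lens rows came from the eye was not tested. In such bulk samples more cells of a type and more RNA per cell cannot be told apart.

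Rod genes stood higher in the treated library for most of the cascade, with folds of 2.45 to 3.02 for transducin alpha and the arrestins and a ratio near 1 in the transducin beta gene gnb1b. All 9 rows reached the floor of 1 CPM in 1 or both libraries. Of these, 5 were counted as at least 2-fold higher, meaning a fold of 2 or more with a counting interval that excludes a ratio of 1, and 0 as at least 2-fold lower. By the same rule 2.68% of all genes above the floor were higher and 0.721% lower. The 5 were GNAT1, saga, sagb, a PDE6B row and a CNGA1 row. Rows with an interval above a ratio of 1 numbered 7 of 9, against 17.4% of all genes. The median log2 ratio of treated over WT was 1.29, beside -0.002 over all genes. The members were chosen with earlier results of these data known. These shares and medians therefore describe the set and do not test it. Both CNGA1 rows reached the floor only through the treated library, so the count of the one that was called says little.

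**Figure D1:**
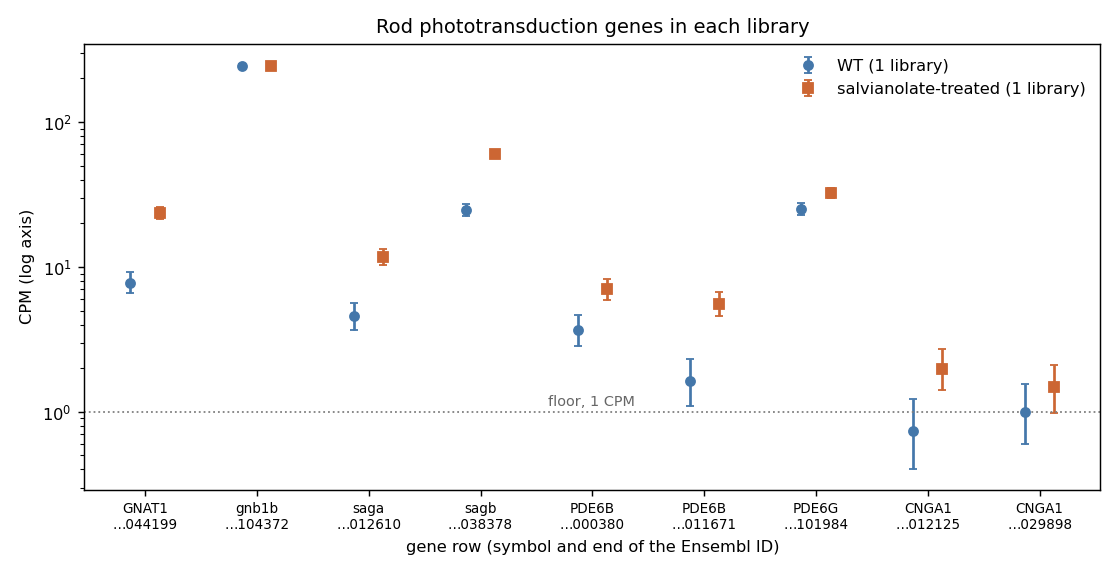
CPM of the 9 rod phototransduction rows in the WT library (circles) and the treated library (squares) on a log axis, with bars for the exact Poisson 95% interval and a dotted line at the floor of 1 CPM. GNAT1 lies at 7.80 and 23.6 CPM, the gnb1b points lie side by side at 243 CPM, and both CNGA1 rows lie near the floor.

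The alpha subunit of rod transducin, which carries the signal from the visual pigment to the phosphodiesterase, was among the members counted as higher. GNAT1 (ENSDARG00000044199) had 149 counts in WT and 466 in treated, or 7.80 CPM (6.60 to 9.15) and 23.6 CPM (21.5 to 25.9). The fold was 3.02 (2.52 to 3.67), and 0.878% of genes above the floor had a higher ratio. The treated value lay well outside the counting interval of the WT value.

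The beta subunit gene behaved otherwise. gnb1b (ENSDARG00000104372) had 4651 counts in WT and 4801 in treated, which both come to 243 CPM (236 to 250.4 in WT and 237 to 250.5 in treated). The log2 ratio was 0.001 (-0.06 to 0.06), in the middle of all genes, with 49.6% of them higher. In length-scaled FPKM (fragments scaled to gene length and library size) it was the most abundant of the 9 rows, at 136 FPKM in WT and 140 FPKM in treated. GNB1 is known from mammals as a subunit of G proteins in many cell types, so its level need not come from rods. Of the other G protein beta rows, gnb1a, its closest copy by name, stood at 194 and 209 CPM (log2 ratio 0.10, interval 0.04 to 0.17), GNB2 at 52.3 and 59.9 CPM, GNB4 at 11.8 and 12.3 CPM and gnb4b at 39.2 and 39.8 CPM. The beta genes of cone transducin were the ones at least 2-fold higher, with gnb3b at 14 and 70.8 CPM and GNB3 at 79.5 and 167 CPM. Whether the level of GNB3 came from cones was not tested. GNB5 ENSDARG00000055377, whose product works with the regulator that switches transducin off, stood at 9.52 and 18.8 CPM, and GNB5 ENSDARG00000099685 at 20.7 and 26.0 CPM. Thus 2 of 8 other beta rows were counted as higher and 0 as lower.

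Both arrestin genes of the list, whose products quench the activated pigment, were counted as higher. sagb (ENSDARG00000038378) was the more abundant, with 471 and 1192 counts, or 24.6 CPM (22.5 to 27.0) in WT and 60.4 CPM (57.1 to 64.0) in treated. Its fold was 2.45 (2.2 to 2.74). saga (ENSDARG00000012610) had 87 and 232 counts, or 4.55 CPM (3.65 to 5.62) and 11.8 CPM (10.3 to 13.4), a fold of 2.58 (2.01 to 3.35). Each fold lay within the counting interval of the other, so no difference between the copies was seen beyond counting error. On the FPKM scale sagb stood at 21.9 and 55.7, above saga at 2.62 and 7.0 in both libraries.

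Phosphodiesterase 6 breaks down cyclic GMP, and its catalytic and inhibitory genes gave different values. PDE6B ENSDARG00000011671 had 31 and 110 counts, or 1.62 CPM (1.10 to 2.3) in WT and 5.58 CPM (4.59 to 6.72) in treated, a fold of 3.40 (2.29 to 5.30). PDE6B ENSDARG00000000380 had 70 and 138 counts, or 3.66 CPM (2.86 to 4.63) and 7.0 CPM (5.88 to 8.27), a fold of 1.90 (1.42 to 2.59), just short of the fold of 2. The intervals of these folds overlap. PDE6G (ENSDARG00000101984), the inhibitory subunit, had 481 and 638 counts, or 25.2 CPM (23.0 to 27.5) and 32.4 CPM (29.9 to 35.0). Its fold of 1.28 (1.14 to 1.45) lay below the intervals of both PDE6B rows, and its interval overlaps narrowly with that of PDE6B ENSDARG00000000380. Overlap alone does not show that rows share a fold, and these phosphodiesterase rows were not compared with each other directly.

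The alpha subunit of the cyclic GMP-gated channel was close to the floor. CNGA1 ENSDARG00000012125 had 14 and 39 counts, or 0.733 CPM (0.401 to 1.23) in WT and 1.98 CPM (1.41 to 2.70) in treated, a fold of 2.64 (1.43 to 5.38). CNGA1 ENSDARG00000029898 had 19 and 29 counts, or 0.994 CPM (0.599 to 1.55) and 1.47 CPM (0.985 to 2.11). Its log2 ratio of 0.55 had an interval from -0.32 to 1.48, so a difference was not detectable at this depth. Reads shared between rows of like sequence may have been split by the authors' estimation, which bears on the CNGA1 and PDE6B rows.

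**Figure D2:**
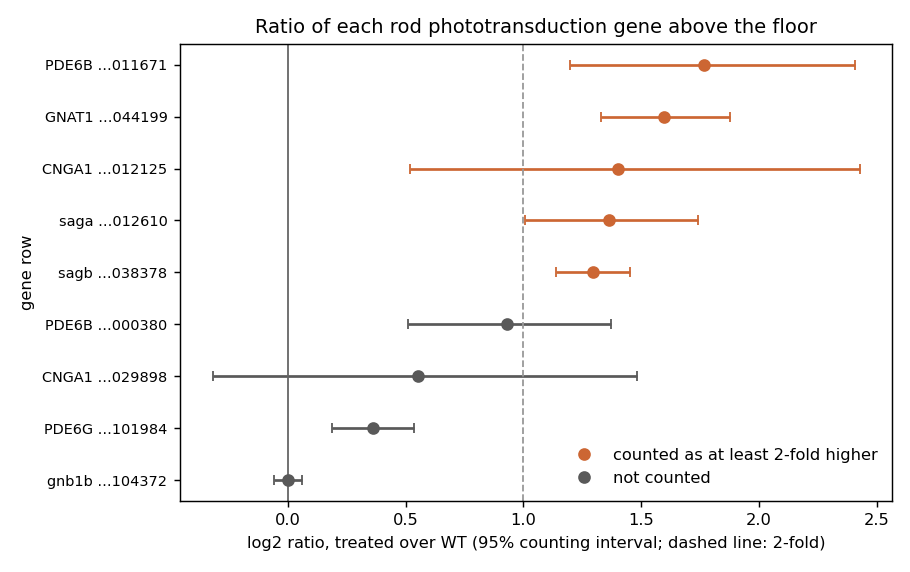
Log2 ratio of treated over WT for the 9 rows, sorted, with the 95% counting interval as bars and a dashed line at the 2-fold ratio; coloured points were counted as at least 2-fold higher. The ratios run from 0.001 for gnb1b to 1.77 for PDE6B ENSDARG00000011671, and the intervals of gnb1b and CNGA1 ENSDARG00000029898 include 0.

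The members did not share one common fold. Set against GNAT1 within each library, which needs no scaling between libraries, 4 of the other 8 rows had a lower log2 ratio with an interval that excludes 0. The difference from GNAT1 was -1.60 (-1.88 to -1.32) for gnb1b and -1.24 (-1.56 to -0.91) for PDE6G. It was -0.67 (-1.18 to -0.15) for PDE6B ENSDARG00000000380 and -1.03 (-1.96 to -0.07) for CNGA1 ENSDARG00000029898. For the arrestin genes the intervals include 0, at -0.31 (-0.62 to 0.01) for sagb and -0.23 (-0.69 to 0.23) for saga. PDE6B ENSDARG00000011671 had 0.18 (-0.47 to 0.87) and CNGA1 ENSDARG00000012125 -0.17 (-1.13 to 0.87). As FPKM, gnb1b amounted to 35 times GNAT1 in WT and 11.4 times in treated, PDE6G to 3.72 and 1.58 times, and sagb to 5.65 and 4.53 times.

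The sum over the members depends on gnb1b. The 9 rows together had 5973 and 7645 counts, 313 and 388 CPM, and their log2 ratio was 0.31 (0.26 to 0.36). Without gnb1b the summed ratio was 1.06. At a fold of 4 in place of 2, 0 members were counted, beside 75 higher and 21 lower of all 19829 genes above the floor. With the deposited FPKM and a pseudocount of 0.5, 3 of 7 members above 1 FPKM were at least 2-fold higher. By that rule 334 of all genes were higher. Their share cannot be given, because the number of all genes above 1 FPKM was not kept.

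**Figure D3:**
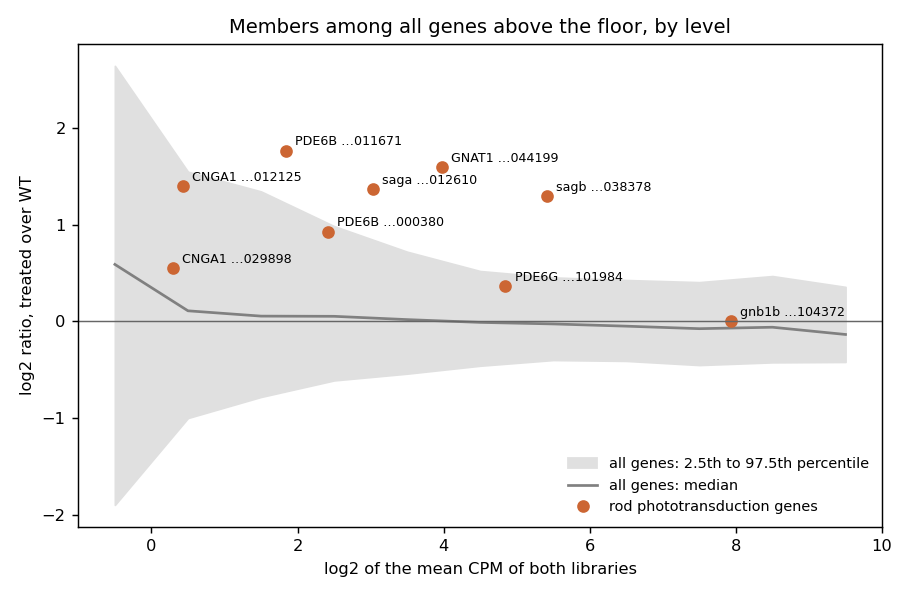
Log2 ratio of treated over WT against the log2 of the mean CPM of both libraries, for the 9 rows (points) over the range that holds the central 95% (grey band) and the median (line) of all genes above the floor in steps of 1 log2 unit. GNAT1, at a ratio of 1.60, and sagb, at 1.29, stand above the band, as do saga and PDE6B ENSDARG00000011671. The other rows lie within it. Among these are CNGA1 ENSDARG00000012125, although counted as at least 2-fold higher, and gnb1b, near the line of 0.

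Rod genes were set beside the cone genes of the same role, summed over rows, in 6 roles. In 5 of the 6 the cone genes had the higher ratio by more than counting error. Transducin beta is among the 5, and its rod side is gnb1b alone, whose level need not come from rods. The cone side of this role is mostly GNB3, with 1519 of 1787 counts in WT. GNB3 had a log2 ratio of 1.07 and gnb3b one of 2.33. For that role the difference cannot be read as one between rods and cones. For transducin alpha, GNAT2 of cones stood at 11.8 and 61.3 CPM, and its log2 ratio exceeded that of GNAT1 by 0.77 (0.43 to 1.12). For arrestin, the saga and sagb rows summed to 29.2 and 72.2 CPM and the ARR3 rows of cones to 31.4 and 129 CPM. The cone ratio exceeded that of the rod genes by 0.73 (0.54 to 0.93).

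The other roles had the same order. The cone catalytic gene PDE6C stood at 6.44 and 29.2 CPM, and its ratio exceeded that of the PDE6B rows by 0.93 (0.48 to 1.38). The cone inhibitory genes pde6ha and PDE6H exceeded PDE6G by 1.26 (0.84 to 1.68), and the cone beta genes exceeded gnb1b by 1.35 (1.25 to 1.44). For the channel the CNGA3 rows of cones exceeded the CNGA1 rows by 0.63, and the interval from -0.21 to 1.46 includes 0. On the FPKM scale GNAT1 amounted to 0.728 times GNAT2 in WT and 0.422 times in treated, the PDE6B rows to 1.04 and 0.507 times PDE6C, and saga and sagb to 1.35 and 0.816 times the ARR3 rows.

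**Figure D4:**
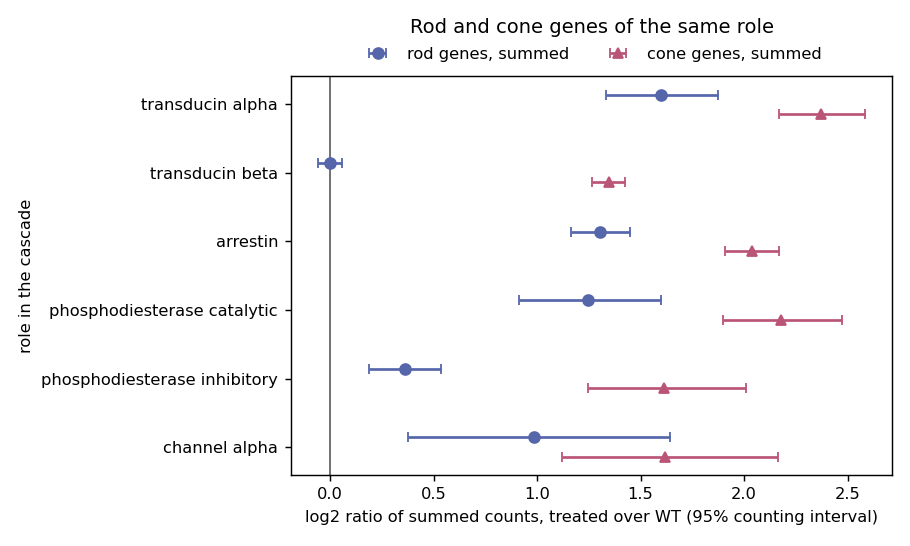
Log2 ratio of treated over WT of summed counts for the rod genes (circles) and the cone genes (triangles) of 6 roles in the cascade, with 95% counting intervals as bars. The cone point lies to the right of the rod point in each role, by 0.77 for transducin alpha and 1.35 for transducin beta. The intervals overlap for the channel alone. The rod side of transducin beta is gnb1b, whose level need not come from rods.

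Of the cone cascade list, 17 of 18 rows above the floor were counted as higher, with a median log2 ratio of 2.17. Of the 18, 3 were under the floor in WT, namely opn1mw2, CNGA3 ENSDARG00000012297 and GRK7 ENSDARG00000055534, and the first 2 of these are among those counted. Its highest ratio was that of the green opsin gene opn1mw2 at 0.471 and 3.50 CPM, and its lowest, 0.71 (-0.28 to 1.80), that of the opsin kinase row GRK7 ENSDARG00000055534. The red opsin gene opn1lw2 was the most abundant, at 74.1 and 368 CPM. No row was named opn1sw1, so the ultraviolet opsin is not in this list.

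Of a list drawn up as other rod or shared outer segment genes, 17 of 25 rows above the floor were counted as higher. The count of lower rows was 0, and the median was 1.51. Which rows belong to rods, cones or both was not tested, so these values cannot be read as those of rods alone. Of the 25, 7 were under the floor in WT, and all of these but gucy2f are among those counted, so their calls say little. The GRK1 kinases phosphorylate the activated pigment before arrestin binds. grk1b had the highest ratio of the list, at 0.889 and 8.16 CPM (log2 ratio 3.16, interval 2.47 to 4.01), and GRK1 stood at 2.41 and 7.81 CPM. cngb1a, which is named for the beta subunit of the rod channel, stood at 0.471 and 1.88 CPM, under the floor in WT. Its sister row cngb1b was the more abundant, with 42 and 74 counts, and was not counted as higher (log2 ratio 0.765, interval 0.207 to 1.354). RGS9 ENSDARG00000045156 was not counted either (log2 ratio 0.368, interval -0.044 to 0.788). The calcium sensor gene rcvrna stood at 8.06 and 23.3 CPM. The lowest ratio was that of SLC24A1, a sodium-calcium exchanger gene of rods, at 1.41 and 1.42 CPM (0.01, interval -0.81 to 0.83), and the most abundant row was GNB5 ENSDARG00000099685.

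The rod transcription factor genes nrl and NR2E3 were not counted as higher or lower. nrl, which in mice sets rod fate, had 85 and 86 counts, 4.45 and 4.36 CPM, a log2 ratio of -0.03 (-0.48 to 0.42). NR2E3, which represses cone genes in rods of mice, had 22.8 CPM in WT and 25.2 CPM in treated, with a log2 ratio of 0.15 (-0.04 to 0.34). The intervals of both lie below those of GNAT1, saga, sagb, both PDE6B rows and CNGA1 ENSDARG00000012125. They overlap those of gnb1b, PDE6G and CNGA1 ENSDARG00000029898. Of the 13 rows of photoreceptor transcription factors, 1 was counted as higher, rx1 at 8.69 and 17.7 CPM, and 0 as lower, with a median of 0.35. Whether the RNA of this list came from photoreceptors was not tested, so the median cannot be read as theirs alone.

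The others of that list differed by less than 2-fold. crx, a homeobox gene of photoreceptors, stood at 110 and 185 CPM (log2 ratio 0.75, interval 0.67 to 0.83), the row CRX at 40.3 and 52.3 CPM, rx2 at 6.64 and 10.4 CPM, NEUROD1 at 142 and 181 CPM and SAMD7 at 14.8 and 20.2 CPM. THRB, the thyroid hormone receptor gene of red cones, stood at 31.0 and 30.2 CPM, six7 at 26.9 and 30.4 CPM and foxq2 at 2.15 and 2.74 CPM. TBX2 ENSDARG00000006120 stood at 59.9 and 58.0 CPM and TBX2 ENSDARG00000018025 at 42.5 and 51.9 CPM. Intervals of 5 of the 13 rows include a ratio of 1.

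Pineal photoreceptors share genes with rods, so their markers are given beside the rod values. Of 10 pineal names 9 had a row, and exorh had none. The opsin rows parapinopsina, parapinopsinb and parietopsin were under the floor, so the counts given for rows above it include no pineal opsin. The 10 rows summed to 20.6 CPM in WT and 21.2 CPM in treated, with a log2 ratio of 0.04 (-0.16 to 0.24), and 0 of 7 rows above the floor were counted in either direction. aanat2, the melatonin synthesis enzyme of the pineal, stood at 3.09 and 3.90 CPM with the highest ratio of the list, 0.34 (-0.17 to 0.85). bsx had the lowest, at 1.36 and 1.06 CPM, and asmt2 was the most abundant at 7.59 and 7.40 CPM.

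Lists drawn up for other parts of the eye had lower medians than the 1.29 of the rod rows. Whether the RNA of those lists came from the eye was not tested. Lens genes had a median log2 ratio of 0.36 over 16 rows, none counted, from lim2.3 at 40.3 and 42.0 CPM to crygmx at 123 and 183 CPM, with crybb1l2 the most abundant at 1006 and 1246 CPM. The inner retina list had 0.37 over 19 rows, 2 of them counted as higher, SLC1A2 ENSDARG00000052138 and cabp5a, both under the floor in WT. Its highest was the glutamate transporter row SLC1A2 ENSDARG00000052138 at 0.680 and 4.82 CPM, its lowest the ganglion cell factor atoh7 at 8.21 and 4.92 CPM, and its most abundant SLC1A2 ENSDARG00000102453 at 451 and 501 CPM. Pigment epithelium genes had -0.03 over 13 rows, none counted, from pmela at 136 and 111 CPM to rlbp1a at 17.0 and 31.1 CPM. TYRP1 ENSDARG00000056151 was the most abundant at 229 and 217 CPM. That list was mixed, with intervals above a ratio of 1 in 3 rows, below it in 6 and including it in 4. RPE65 ENSDARG00000007480 had a log2 ratio of 0.635 (0.398 to 0.876) and RPE65 ENSDARG00000094752 one of -0.219 (-0.399 to -0.04). Summed, the lens rows had a ratio of 0.35 (0.34 to 0.36) and the rod rows one of 0.31, or 1.06 without gnb1b. The part that the eye content of the libraries had in the rod values was not tested.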

How the data were processed

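RNA of 1 WT and 1 salvianolate-treated zebrafish library was sequenced. The authors' deposited table holds estimated counts and FPKM per gene, per the file headers. The estimated counts are not normalised, and the deposited single-library files hold the same count for all 26597 genes. FPKM values are scaled by the authors to gene length and library size. The submitters' processing notes name build danRer11 and the tools HISAT2, StringTie 1.3.1, fastp 0.18.0, Bowtie2 2.2.8, edgeR and DESeq2; the sources used here give neither their roles nor the annotation or use of strand. The single-library files head their counts AB72h (WT) and DSDF (treated), which no source used here explains.

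Counts were rounded to whole numbers and scaled by TMM factors (0.979 and 1.02) from edgeR 4.0.16 (R 4.3.3). Log2 ratios used a prior of 0.5 counts. Their intervals came from the exact Clopper-Pearson interval of the treated share of a gene's counts. CPM intervals are exact Poisson intervals, and differences between ratios are conditional odds ratios with exact intervals. The calculation was tested on simulated data drawn with counting error alone. That test cannot show how the calls would hold against variation between animals or libraries. PCR copies are not independent molecules, so intervals cover counting error only.

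A names table paired 23499 rows with a symbol. A name was matched ignoring case, or in capitals without its copy letter. 1 name of the set is not reported here. The members and lists were chosen with earlier results of these data known. Named were every member, the highest, lowest and most abundant gene of each list above the floor, and all rows of the transcription factor and beta subunit lists; others named beside them, such as GRK1, cngb1a, rcvrna, MYL7, nppa and actc1a and cone genes of a matching role, were chosen after their values were seen. A row may belong to more than 1 list, and rows of members were left out of the other lists. With 2 libraries a pattern is a single ratio, so no gene was named for a like pattern. A motif search in promoters was planned and not run. Alternatives were other scalings (DESeq2 1.42.0 among them), floors, priors, folds, interval rules, matching, and FPKM. Other steps used Python 3.11.15 with scipy 1.17.1, numpy 2.4.6, matplotlib 3.10.9 and pandas 2.3.3.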

Additional observations from a re-analysis of the deposited data

How the results depend on the processing

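No paired analysis was possible because both groups consist of a single library. Of 118 recomputed log2 ratios of single members, 116 stayed within the counting interval of the reported value. None of those with an interval off 0 changed sign. Other floors, folds, interval rules and choices of members leave a single ratio unchanged by construction, so many of the 118 could not move. Only other scalings, another prior and FPKM could move a ratio. PDE6B ENSDARG00000011671 had 0.96 with FPKM and gnb1b 0.06 with total counts. The FPKM of that PDE6B row, 0.28 in WT and 1.02 in treated, are near the pseudocount of 0.5, which by construction draws the ratio towards 0. CNGA1 ENSDARG00000012125, at 0.29 and 0.83 FPKM, was under 1 FPKM and so could not be counted. Members counted as higher numbered 4 to 6 of 7 to 9, except with FPKM, where they numbered 3 of 7, and at a fold of 4, where they numbered 0, and 0 were lower in each setting. The summed log2 ratio was 0.37 with total counts, 0.40 with FPKM and 1.06 without gnb1b, the most abundant member. The setting with 1 gene ID per name was chosen after seeing the data. Counts of all genes, 532 higher and 143 lower, became 334 and 81 with FPKM, 181 and 33 when the floor was 5 CPM, 1204 and 523 at a fold of 1.5, 75 and 21 at a fold of 4, and 161 and 33 where the interval had to exclude the fold of 2. Without a floor 235 were lower. The counts at a fold of 1.5 or 4 and with the stricter interval are of the same 19829 genes. For FPKM and the floor of 5 CPM the number of all genes above the floor was not kept. The member counts of those settings therefore have no share of all genes beside them. A higher floor, a larger fold or a stricter interval can by construction only remove genes, and a smaller fold or no floor can only add them. For the counts of all genes with FPKM the cause was not tested. Depth limits the CNGA1 rows most, at 14 to 39 counts a library.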
